A study of Mus musculus with 8 samples.

Results

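Collagen genes were examined in interscapular brown adipose tissue from 8 mice. A gene was taken as a collagen when its symbol read Col, digits, a, digits, and 44 of the 54532 genes in the deposited table met this. Of these, 28 had at least 80 read counts in all over the 8 libraries and make up the set described here: 8 fibrillar, 7 basement membrane, 5 network and 8 other collagens. The gene nearest above this minimum was Col28a1 with 105 counts and the nearest below it was Col6a6 with 77. The symbol Col4a3bp was not taken, since it names a lipid transfer protein and not a collagen chain.

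Collagens are the main structural proteins of the extracellular matrix, and each molecule is a triple helix of 3 chains that may come from different genes. Fibrillar collagens form the cross-linked fibrils that give tissue its tensile strength and are made mainly by fibroblasts. Collagen IV builds the sheet of the basement membrane, which surrounds every adipocyte and capillary, and collagen VI forms beaded filaments that join it to the surrounding matrix. Brown fat burns lipid to make heat, and its basement membrane is laid down by adipocytes, endothelial cells and mural cells.

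The 4 tested mice carried floxed Pparg together with Myl1-Cre, and the 4 control mice carried floxed Pparg without the Cre. The product of Pparg is the master transcription factor of adipocyte differentiation, and Myl1 encodes a myosin light chain of fast skeletal muscle, so Cre acts wherever Myl1 is or was active. All 8 were 7-month-old males on normal chow, held at 4 °C for 24 h before the tissue was taken, so no mouse kept warm is available for comparison. The question of the series is how much brown fat depends on new adipocytes that arise from progenitors expressing Myl1.

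The libraries held 12226608 to 19268945 counts. Pparg itself stood at 279, 267, 269 and 320 CPM (read counts scaled to a common library size) in Cre mice 1 to 4, against 201, 200, 186 and 202 CPM in control mice 1 to 4. It was higher in the Cre mice, at 284 ± 24.9 CPM against 197 ± 7.36 CPM in the control mice (SD, n = 4 each; edgeR adjusted p = 0.0328), which goes against the label. With all 8 libraries DESeq2 and limma-voom made the same call (adjusted p of 1.1e-05 and 0.0275). In edgeR the call was lost when any 1 of the 8 libraries was left out (adjusted p of 0.0505 to 0.119). Reads from exons that are not floxed are counted too, and the Cre mice are therefore called labelled knockout, with every direction drawn from the labels as given. The brown adipocyte gene Ucp1 was abundant, at 9303 ± 1473 CPM in labelled knockout and 11441 ± 1272 CPM in control libraries. Skeletal muscle RNA was also present. The 20 skeletal muscle markers summed to 12761 to 23624 CPM in labelled knockout and 6607 to 17954 CPM in control libraries. All 20 had a log2 fold change above 0, and none passed an adjusted p of 0.05 in edgeR. At an unadjusted p of 0.05 in edgeR, 13 of the 20 were below, against 15.2% of all genes tested. Myl1 itself, which is not among these 20, was at 367 ± 105 CPM in labelled knockout and 378 ± 68.8 CPM in control libraries. The log2 fold change of Myl1 was -0.05 ± 0.2 (SE, edgeR adjusted p = 0.94).

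Basement membrane collagen dominated the collagen RNA of this tissue. Col4a1 and Col4a2, which encode the chains of the common form of collagen IV, made up 63.2 to 69.7% of all collagen CPM in labelled knockout and 68.7 to 73.0% in control libraries. With the fibrillar gene Col27a1 they accounted for 77.0% over the 8 libraries. All 28 genes together took 0.146 to 0.179% of the counts of a library.

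Levels were compared between genes per kilobase of annotated exon, since longer transcripts give more reads. On this scale Col4a1 was at 81.7 ± 1.76 CPM per kilobase in labelled knockout and 85.4 ± 8.38 in control libraries, and Col4a2 was at 68.0 ± 2.00 and 73.7 ± 4.58 (SD, n = 4 each). Col27a1 followed at 10.8 ± 4.05 in labelled knockout and 8.78 ± 1.93 CPM per kilobase in control libraries. The classical interstitial chains lay lower. Col3a1 was at 6.97 ± 0.91 and 6.68 ± 1.16 CPM per kilobase, Col1a1 at 2.83 ± 0.501 and 3.07 ± 0.716, and Col1a2 at 2.33 ± 0.46 and 2.47 ± 0.605, labelled knockout before control. Col5a3, Col3a1 and Col6a1 were neighbours in this order, within each other's spread. The length matters for the middle of the order: with the length of the transcript that has the longest coding sequence, Col3a1 passed Col5a3, at 12 against 7.80 CPM per kilobase over the 8 libraries, and Col1a2 passed Col1a1, at 5.57 against 3.27, while the leading 3 genes stayed Col4a1, Col4a2 and Col27a1.

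**Figure D1:**
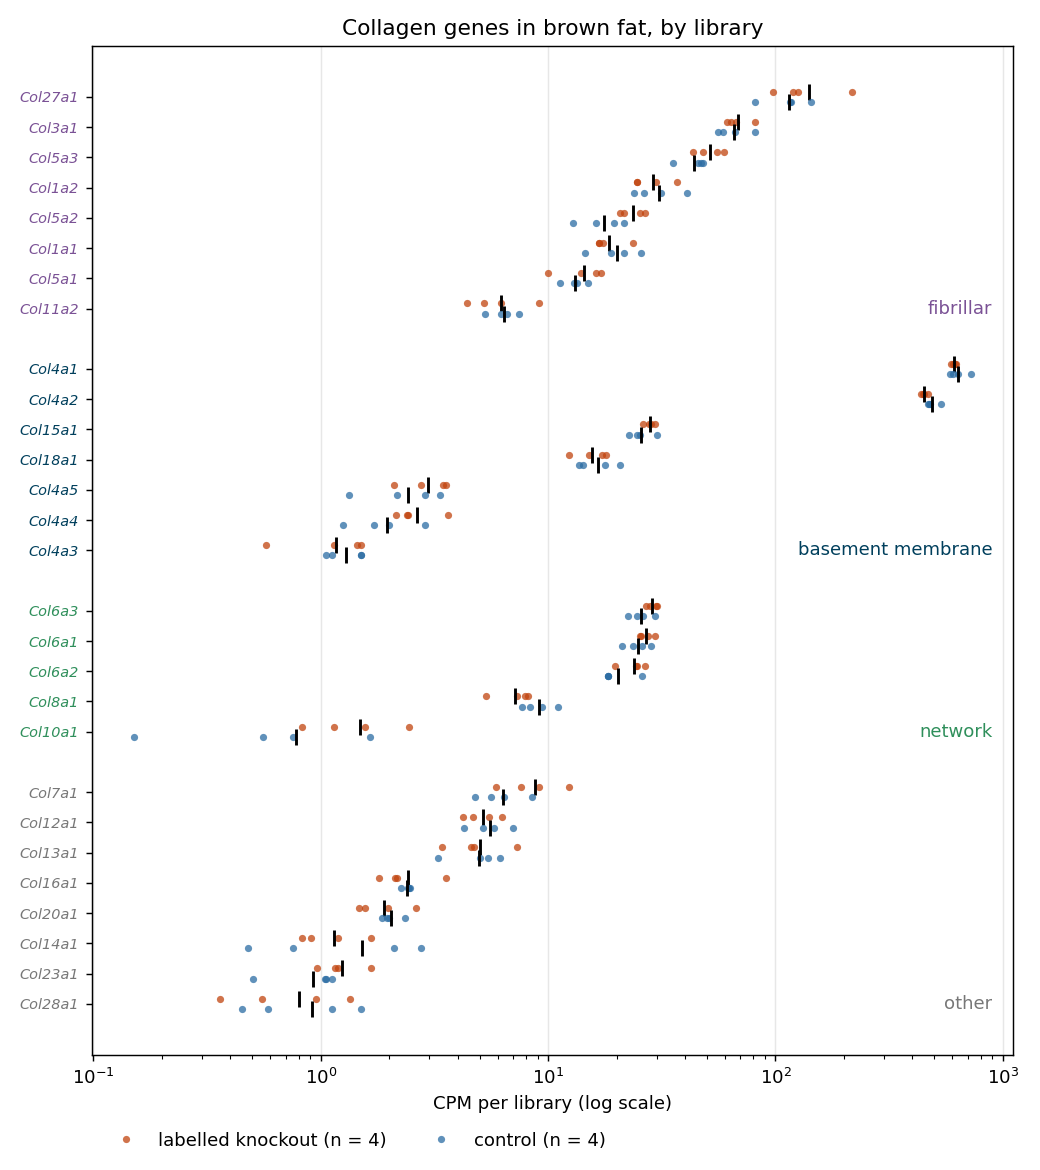
Level of the 28 collagen genes in each library in CPM on a log scale, grouped by class, with labelled knockout above control for each gene; points are libraries and black ticks are group means (n = 4 each). Col4a1 and Col4a2 lie far to the right of every other collagen, and the points of the groups overlap for every gene but Col4a2.

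The sequences before the RefSeq starts of the 3 most abundant fibrillar genes are shown. Any link between these sequences and the levels was not tested. Each is the 250 bases before the RefSeq start, 5′ to 3′ on the gene's strand, from build GRCm38.p6. Col27a1 lies at chr4:63215162-63215411 on the plus strand, Col3a1 at chr1:45311288-45311537 on the plus strand and Col5a3 at chr9:20815068-20815317 on the minus strand. The Col27a1 window falls inside the gene span of the GENCODE annotation used for gene positions, which begins at 63214004. Capitals mark the TATA box core TATAAA, the GC box core GGGCGG and the CCAAT box on either strand, and none of the marked matches overlap.
Col27a1: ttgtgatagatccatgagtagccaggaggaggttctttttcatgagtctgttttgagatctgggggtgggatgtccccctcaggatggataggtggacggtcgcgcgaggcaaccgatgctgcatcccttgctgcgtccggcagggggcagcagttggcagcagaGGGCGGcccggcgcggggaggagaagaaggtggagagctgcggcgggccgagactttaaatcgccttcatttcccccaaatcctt
Col3a1: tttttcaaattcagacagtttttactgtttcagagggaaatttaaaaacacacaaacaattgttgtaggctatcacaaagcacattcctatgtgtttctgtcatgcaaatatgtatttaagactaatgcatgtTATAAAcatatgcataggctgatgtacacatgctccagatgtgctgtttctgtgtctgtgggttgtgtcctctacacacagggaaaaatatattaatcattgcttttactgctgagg
Col5a3: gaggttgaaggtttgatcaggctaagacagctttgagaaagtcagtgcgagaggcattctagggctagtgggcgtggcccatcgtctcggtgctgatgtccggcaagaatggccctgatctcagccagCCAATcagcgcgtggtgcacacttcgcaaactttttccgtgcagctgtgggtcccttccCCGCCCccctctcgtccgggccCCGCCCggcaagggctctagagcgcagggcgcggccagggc

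The Col27a1 window held GGGCGG and neither of the other motifs. The Col3a1 window held TATAAA on the plus strand, beginning 117 bases before the start, and the Col5a3 window held a CCAAT and a pair of GGGCGG matches on the opposite strand. RefSeq windows, 25 in all, were at hand for 23 of the 28 genes. Members are counted by gene and the background by window, so a gene with several windows had more chances of a match. GGGCGG was found in 13 of these 23, against 32.7% of all 32851 RefSeq windows of the same length, CCAAT in 8 against 33.8%, and TATAAA in 4 against 12.4%. The DR1 consensus, the direct repeat that PPAR and RXR bind as a pair, was in none of the 23 and in 0.0335% of all windows. Both strands were searched, and a match or its absence describes only these letters.

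Between the genotypes none of the 28 collagen genes passed an adjusted p of 0.05 in edgeR's quasi-likelihood test across all 13756 genes tested, of which 53 passed (0.385%; 0.291% higher and 0.0945% lower in labelled knockout). All 28 had enough counts to be tested. At an unadjusted p of 0.05, 1 of the 28 was below, against 15.2% of all genes, and DESeq2, which called 2.79% of all genes, and limma-voom, which called 0.385%, also called 0 members. The log2 fold changes, labelled knockout over control, lay above 0 for 15 genes and below 0 for 13, with a median of 0.03 beside 0.00 for all genes tested. The median size of the change, sign set aside, was 0.14 for the collagens and 0.16 for all genes. The summed collagen level was 1576 ± 71.9 CPM in labelled knockout and 1590 ± 94.8 CPM in control libraries (SD, n = 4 each), a ratio of 0.991.

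The 95% intervals say how large a difference the 8 libraries leave room for. For 23 of the 28 genes the interval stayed within a 2-fold change either way, and for 16 of them within 1.5-fold. The 5 genes with wider intervals were Col4a4, Col10a1, Col14a1, Col23a1 and Col28a1, all with at most 264 counts in all. A p that misses the threshold does not show that a gene was equal in both genotypes. In tissue RNA, fewer cells of a type and less RNA per cell cannot be told apart.

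**Figure D2:**
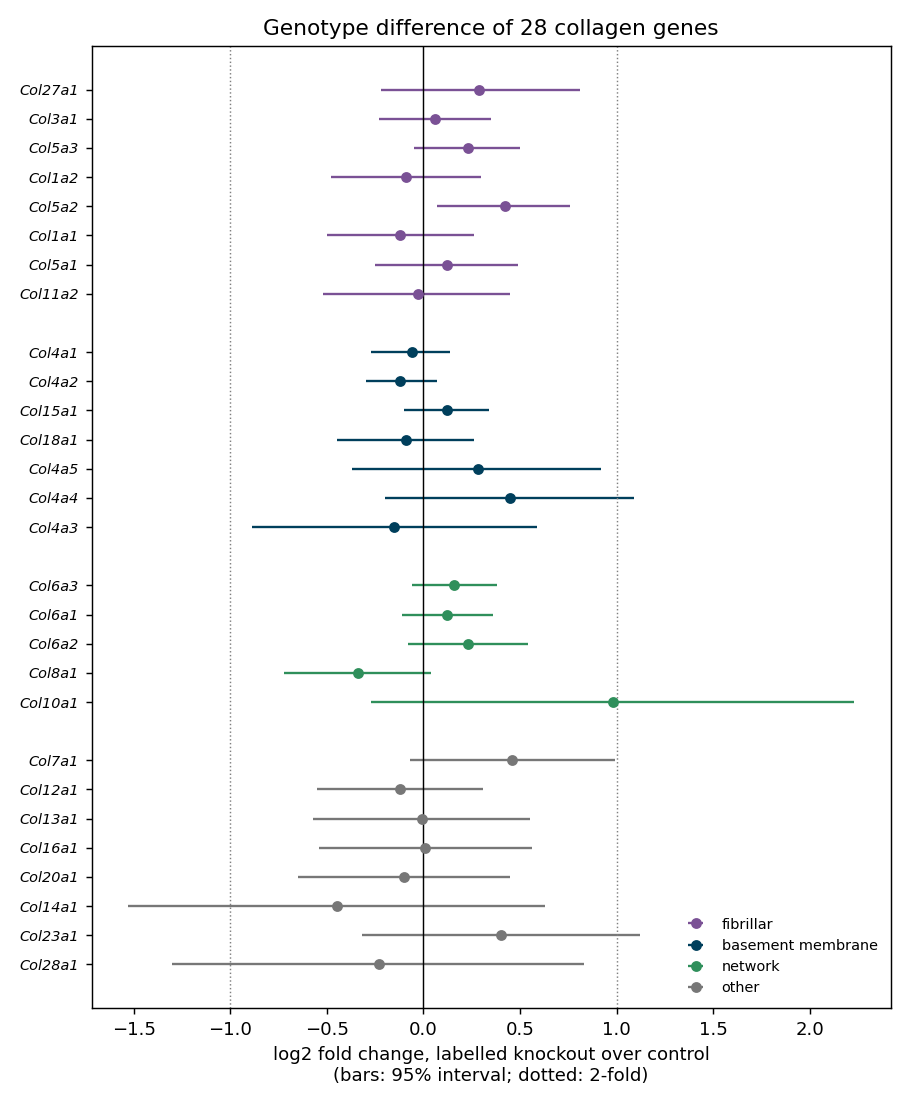
Log2 fold change, labelled knockout over control, of the 28 collagen genes with 95% intervals, coloured by class, with dotted lines at a 2-fold change. The interval of Col5a2 alone stays clear of 0, before adjustment for the number of genes, and those of Col4a1 and Col4a2 are the narrowest.

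Among the basement membrane collagens, 3 genes lay above 0 and 4 below, with a median log2 fold change of -0.06. Col4a1 (ENSMUSG00000031502, GRCm38 chromosome 8, 11198423 to 11312826, minus strand) stood at 606, 625, 613 and 594 CPM in labelled knockout 1 to 4, against 587, 727, 632 and 604 CPM in control 1 to 4. Control 2 was the highest of the 8, and the groups overlapped. The log2 fold change was -0.06 ± 0.09 (SE; adjusted p = 0.787), with a 95% interval from -0.27 to 0.14.

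Col4a2 (ENSMUSG00000031503, chromosome 8, 11312805 to 11449287, plus strand) stood at 451, 446, 435 and 467 CPM in labelled knockout 1 to 4, against 474, 533, 467 and 476 CPM in control 1 to 4. It was the 1 collagen of the 28 whose groups did not overlap, a pattern seen in 8.10% of all genes tested, and labelled knockout 4 and control 3 both round to 467 CPM. The log2 fold change was -0.12 ± 0.09 (adjusted p = 0.542), and its interval ran from -0.30 to 0.07. Col4a1 and Col4a2 lie head to head, and the annotation has their exons overlap by 22 bases on opposite strands.

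Col15a1 and Col18a1 encode multiplexins, proteoglycan collagens of the basement membrane zone, and Col18a1 is the source of endostatin. Col15a1 stood at 29.5, 27.9, 26.1 and 28.2 CPM in labelled knockout 1 to 4, against 24.6, 30.0, 22.7 and 25.4 CPM in control 1 to 4. Col18a1 stood at 17.3, 15.1, 12.3 and 17.9 CPM in labelled knockout 1 to 4, against 13.6, 20.8, 17.8 and 14.3 CPM in control 1 to 4. In both genes the groups interleaved, with log2 fold changes of 0.12 ± 0.10 and -0.09 ± 0.16 (adjusted p of 0.615 and 0.822).

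The minor collagen IV chains were low. Col4a3 and Col4a4, which with Col4a5 form the network of the kidney filter, were at 0.573 to 1.5 and 2.14 to 3.63 CPM in labelled knockout, against 1.05 to 1.51 and 1.25 to 2.87 CPM in control libraries. Col4a5, on the X chromosome, was at 2.10 to 3.55 CPM in labelled knockout and 1.33 to 3.35 CPM in control libraries. Their log2 fold changes were -0.15 ± 0.34, 0.45 ± 0.29 and 0.28 ± 0.29, in that order of genes, and none passed (lowest adjusted p of the class 0.496). An antisense gene shares 563 bases of Col4a3 exon, and since nothing says whether counting used strand, its level is uncertain. Col4a6 had 18 counts in all and was under the minimum.

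**Figure D3:**
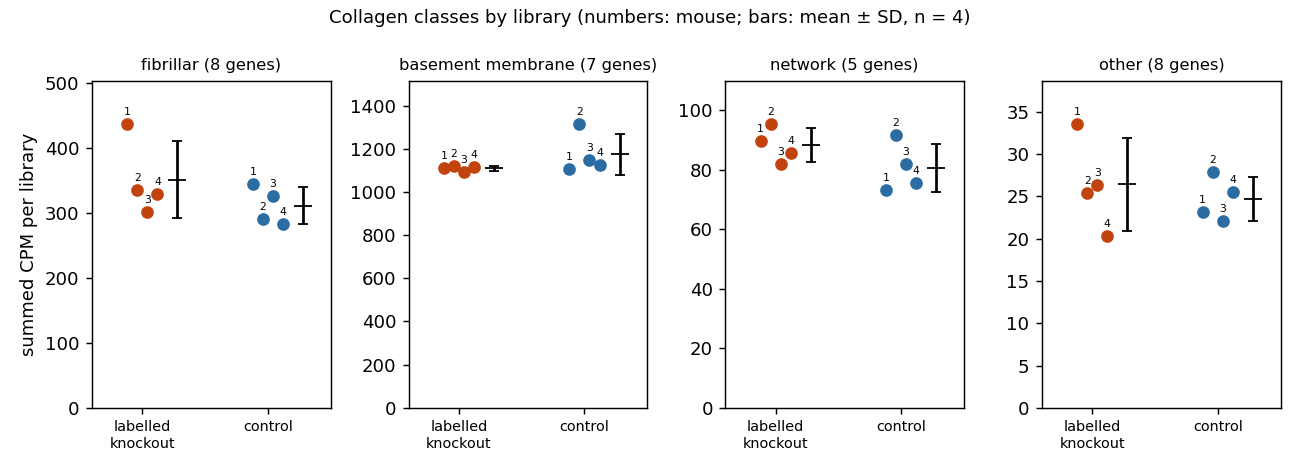
Summed CPM of each collagen class in each library, labelled knockout left and control right, with the mouse number above each point and bars for mean ± SD (n = 4). The groups overlap in all 4 classes, labelled knockout 1 stands above the rest in the fibrillar and other panels, and control 2 in the basement membrane panel.

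The fibrillar class held Col27a1 and the chains of collagens I, III, V and XI. It summed to 302 to 438 CPM in labelled knockout and 284 to 345 CPM in control libraries, where 5 genes lay above 0 and 3 below; their median log2 fold change was 0.09. Without Col27a1 the 7 other genes summed to 211 ± 24.2 CPM in labelled knockout and 197 ± 27.1 CPM in control libraries (SD, n = 4 each).

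Col27a1 (ENSMUSG00000045672, chromosome 4, 63214004 to 63334991, plus strand), a fibrillar collagen best known from the cartilage growth plate, stood at 217, 97.8, 120 and 125 CPM in labelled knockout 1 to 4, against 116, 81.6, 143 and 117 CPM in control 1 to 4. Labelled knockout 1 lay far above the other 7, and the rest of the groups interleaved. The log2 fold change was 0.29 ± 0.23 (adjusted p = 0.585) and became 0.00 without labelled knockout 1. The 10 chondrocyte and bone markers summed to 3.32 to 8.77 CPM in labelled knockout and 2.42 to 3.56 CPM in control libraries, with Matn1, Ibsp and Sp7 at 0 counts; most of the sum was Sox9, at 4.67 ± 2.46 CPM in labelled knockout and 2.02 ± 0.721 CPM in control libraries, followed by Cnmd at 0.601 and 0.794 CPM, and the cartilage collagen Col2a1 had 9 counts over all 8 libraries.

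Col3a1 (chromosome 1, 45311538 to 45349706, plus strand), the chain of the pliable fibrils of soft organs, stood at 67.1, 81.3, 61.3 and 63.8 CPM in labelled knockout 1 to 4, against 81.3, 66.4, 58.6 and 55.9 CPM in control 1 to 4. Labelled knockout 2 and control 1 shared the highest level, and the log2 fold change was 0.06 ± 0.13 (adjusted p = 0.868). Col1a2, the minor chain of collagen I, stood at 29.8, 36.7, 24.6 and 24.6 CPM in labelled knockout 1 to 4, against 40.9, 31.5, 23.8 and 26.4 CPM in control 1 to 4. Col1a1, its major chain, was at 16.7 to 23.5 CPM in labelled knockout and 14.5 to 25.7 CPM in control libraries. These 3 interstitial genes were together highest in control 1, at 148 CPM, and lowest in control 3, at 96.9 CPM, so the spread within the control group spanned that of the labelled knockout group, 103 to 141 CPM. The log2 fold changes of Col1a1 and Col1a2 were -0.12 ± 0.17 and -0.09 ± 0.18, and without control 1 they turned to 0.01 and 0.08.

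Collagen V regulates the diameter of collagen I fibrils. Col5a3 stood at 59.4, 47.8, 43.3 and 55.4 CPM in labelled knockout 1 to 4, against 45.6, 47.9, 47.0 and 35.3 CPM in control 1 to 4, and per kilobase of exon it was the highest of the 3 chains, at 7.01 CPM against 2.14 for Col5a2 and 1.62 for Col5a1 over the 8 libraries. Its log2 fold change was 0.23 ± 0.13 (adjusted p = 0.417). Col5a2 (chromosome 1, 45374321 to 45503282, minus strand) stood at 25.3, 26.6, 20.7 and 21.6 CPM in labelled knockout 1 to 4, against 16.2, 21.6, 19.4 and 12.9 CPM in control 1 to 4. Control 2 lay among the labelled knockout libraries and the other 3 control libraries lay below all 4 of them. The log2 fold change was 0.42 ± 0.16, with an interval from 0.07 to 0.76, an unadjusted p of 0.0213 and an adjusted p of 0.254. This is the smallest p of the 28 genes, for which its libraries are given here.

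Col5a1 was at 9.99 to 17.1 CPM in labelled knockout and 11.3 to 14.9 CPM in control libraries (log2 fold change 0.12 ± 0.17). Antisense transcripts share 212 bases of its exons. Col11a2, a chain best known from cartilage, was at 4.39 to 9.09 and 5.26 to 7.41 CPM, labelled knockout before control, with a log2 fold change of -0.03 ± 0.22. Under the minimum lay Col24a1 with 45 counts, Col11a1 with 12 and Col2a1 with 9.

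Network collagens were led by collagen VI, whose chains are made by fibroblasts and adipocytes. Of the 5 genes 4 lay above 0 (median log2 fold change 0.16), and none passed the threshold. Col6a3 stood at 29.8, 30.0, 28 and 27.0 CPM in labelled knockout 1 to 4, against 22.5, 29.5, 26.1 and 24.6 CPM in control 1 to 4. Col6a1 stood at 25.3, 29.5, 25.7 and 27.5 CPM in labelled knockout 1 to 4, against 21.2, 28.4, 25.9 and 23.5 CPM in control 1 to 4. In each gene control 2 lay among the labelled knockout libraries and control 1 was the lowest of the 8.

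Col6a2 stood at 24.7, 26.6, 19.6 and 24.3 CPM in labelled knockout 1 to 4, against 18.3, 25.8, 18.3 and 18.4 CPM in control 1 to 4. Control 1, 3 and 4 lay close together below all labelled knockout libraries, and control 2 lay above all but 1 of them. The log2 fold changes were 0.16 ± 0.10 for Col6a3, 0.12 ± 0.11 for Col6a1 and 0.23 ± 0.14 for Col6a2, with adjusted p from 0.460 to 0.618. The 3 genes summed to 79.5 ± 5.22 CPM in labelled knockout and 70.6 ± 9.34 CPM in control libraries (SD, n = 4 each). Control 1, at 62.0 CPM, also had the lowest sum of skeletal muscle markers of the 8, and labelled knockout 2 was the highest for both sums. The order differed elsewhere. Labelled knockout 3 had 73.3 CPM of collagen VI and 22454 CPM of muscle markers, and labelled knockout 4 had 78.8 and 12761 CPM. In the fit that includes the muscle score, the log2 fold changes were 0.01 for Col6a3, 0.01 for Col6a1 and 0.10 for Col6a2. The score partly follows genotype, and whether muscle RNA has a part in the collagen VI levels was not tested.

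Short-chain collagens VIII and X build hexagonal lattices. Col8a1, best known from vessel walls and the cornea, stood at 7.27, 8.16, 7.89 and 5.35 CPM in labelled knockout 1 to 4, against 9.43, 7.67, 11 and 8.34 CPM in control 1 to 4. Control 2 lay among the labelled knockout libraries and the other control libraries above all of them; its log2 fold change was -0.34 ± 0.17 (adjusted p = 0.370). Col10a1, the collagen of hypertrophic cartilage, had 128 counts in all and was at 0.827 to 2.45 CPM in labelled knockout and 0.15 to 1.65 CPM in control libraries. Its log2 fold change of 0.98 ± 0.57 is the largest of the 28 and has an interval from -0.27 to 2.23. The log2 fold change was 1.70 without control 1, 0.56 without control 2 and 2.06 in the fit that holds the muscle score, and Col10a1 was called in none of these. Of the chondrocyte and bone markers given beside Col27a1, 2 had enough counts to be tested, Sox9 above 0 and Cnmd below, and neither passed. Under the minimum lay Col6a6 with 77 counts, Col8a2 with 19, Col6a5 with 4 and Col6a4 with 1.

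The other collagens summed to 26.4 ± 5.49 CPM in labelled knockout and 24.7 ± 2.57 CPM in control libraries (SD, n = 4 each), with 3 genes above 0, 5 below and a median of -0.05 on the log2 scale. Col7a1, the anchoring fibril collagen that ties epithelia to the tissue beneath, stood at 12.4, 7.56, 9.16 and 5.89 CPM in labelled knockout 1 to 4, against 5.61, 6.41, 4.78 and 8.51 CPM in control 1 to 4. Labelled knockout 1 was the highest and the groups overlapped; its log2 fold change was 0.46 ± 0.24 (adjusted p = 0.389).

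Col12a1 encodes a FACIT, a collagen that sits on the surface of fibrils. It stood at 6.24, 4.68, 5.47 and 4.21 CPM in labelled knockout 1 to 4, against 5.76, 7.01, 5.18 and 4.25 CPM in control 1 to 4. Col13a1, a transmembrane collagen of cell adhesions and the neuromuscular junction, stood at 7.27, 3.41, 4.71 and 4.57 CPM in labelled knockout 1 to 4, against 3.29, 5.46, 5.02 and 6.17 CPM in control 1 to 4. Their log2 fold changes were -0.12 ± 0.20 and -0.01 ± 0.26, and the groups interleaved in both.

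Col16a1, a further FACIT, stood at 2.13, 3.55, 2.16 and 1.8 CPM in labelled knockout 1 to 4, against 2.25, 2.45, 2.47 and 2.42 CPM in control 1 to 4. Labelled knockout 2 alone lay above the control libraries, and the log2 fold change was 0.01 ± 0.25. The rest had mean levels of at most 2.03 CPM in either group. The FACIT genes Col20a1 and Col14a1 had log2 fold changes of -0.10 ± 0.25 and -0.45 ± 0.49, the transmembrane collagen Col23a1 had 0.40 ± 0.33 and the collagen VI-like Col28a1 had -0.23 ± 0.48, which became -1.12 with the muscle score as a covariate (edgeR adjusted p = 0.484). Col14a1 ranged from 0.478 to 2.77 CPM among the control libraries, which is wider than its range of 0.827 to 1.67 CPM in labelled knockout. Under the minimum lay Col22a1 with 27 counts, Col17a1 with 26, Col26a1 and Col9a3 with 23 each, Col19a1 with 16, Col25a1 with 11, Col9a2 with 7 and Col9a1 with 2.

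For the main chains of collagens I, IV and VI, the ratio between partners varied less from mouse to mouse than in other pairs. The CPM of Col4a1 over that of Col4a2 was 1.36 ± 0.064 in labelled knockout and 1.31 ± 0.063 in control libraries (SD, n = 4 each), with all 8 between 1.24 and 1.41. Its coefficient of variation was 4.87%, little below the 7.13% and 6.32% of the Col4a1 and Col4a2 levels, which hardly varied themselves. Col6a1 over Col6a3 lay between 0.849 and 1.02, with a coefficient of variation of 5.53%, against 10.3% and 9.85% for the levels of these chains. Col6a1 over Col6a2 lay between 1.02 and 1.41, and its coefficient of 11% was no lower than that of the Col6a1 level itself, 10.3%. Col1a1 over Col1a2 was 0.647 ± 0.0632 and 0.659 ± 0.0486, labelled knockout before control, and this ratio varied with a coefficient of 8.05% over the 8 libraries, against 19.9% and 21% for the level of each chain. Per kilobase of exon the collagen I ratio was 1.06 to 1.35, and with coding transcript length 0.507 to 0.643, so its absolute value depends on the annotated length.

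Other pairs varied more. Col5a1 over Col5a2 was 0.608 ± 0.118 in labelled knockout and 0.764 ± 0.0908 in control libraries, with ranges of 0.483 to 0.755 and 0.690 to 0.877 that overlapped. Col4a3 over Col4a4, head to head on chromosome 1, was 0.445 ± 0.159 in labelled knockout and 0.692 ± 0.134 in control libraries, and rests on 9 to 46 counts per gene and library. Col3a1 and Col5a2 are neighbours that converge on chromosome 1, and the ratio of their CPM ran from 2.65 to 3.06 in labelled knockout and from 3.02 to 5.0 in control libraries. The ratios were chosen after the levels had been seen and were not tested.

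**Figure D4:**
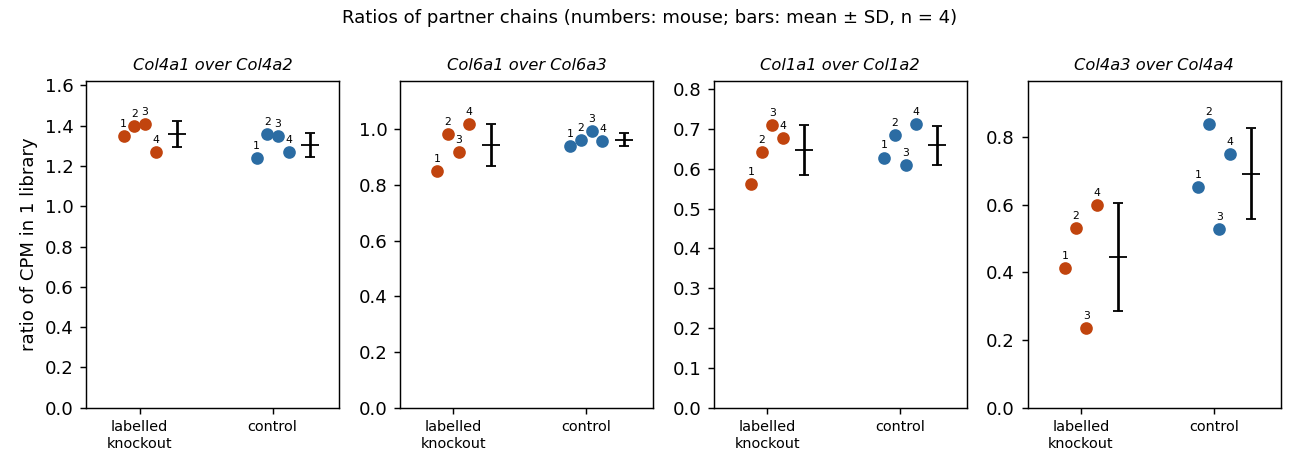
Ratio of CPM between partner chains in each library, labelled knockout left and control right, with the mouse number above each point and bars for mean ± SD (n = 4). Col4a1 over Col4a2 stays between 1.24 and 1.41 in all 8 libraries, while Col4a3 over Col4a4 runs from 0.237 to 0.84.

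Which mouse stood highest differed by class. Labelled knockout 1 and 2 were each the highest of the 8 libraries for 8 of the 28 genes, control 2 for 6, control 1 for 4 and control 3 for 2, while the other 3 libraries were highest for none. Control 2 led 4 of the 7 basement membrane genes, and labelled knockout 2 led 3 of the 5 network genes, namely the collagen VI chains. Control 1, highest for Col1a1, Col1a2 and Col3a1, was the lowest for all 3 collagen VI chains. Fibroblast and adipose progenitor markers (18 genes, 9 above 0 and 9 below) summed to 1491 to 1856 CPM in labelled knockout and 1195 to 1991 CPM in control libraries, with control 2 the highest, and control 1, at 1376 CPM, was not high. Their most abundant member, Gsn, made up most of this sum, at 1134 ± 144 CPM in labelled knockout and 999 ± 290 CPM in control libraries.

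Markers of vessel cells, which make basement membrane, overlapped between the genotypes. The 12 endothelial markers summed to 1143 to 1311 CPM in labelled knockout and 988 to 1558 CPM in control libraries (median log2 fold change 0.03), and the 10 mural cell markers to 536 to 652 and 482 to 665 CPM, with a median of 0.08. None of either list passed (edgeR, 0 and 1 under an unadjusted p of 0.05, against 15.2% of all genes). Of the 12 macrophage markers, which summed to 114 to 195 CPM in labelled knockout and 108 to 156 CPM in control libraries, all lay above 0 and none passed. The Schwann cell markers, 9 tested and all above 0, summed to 224 to 263 CPM in labelled knockout and 175 to 212 CPM in control libraries. Of these 9, 1 passed, against 0.385% of all genes. It was Pmp22, at 51.8 ± 3.83 CPM in labelled knockout against 36.6 ± 2.69 CPM in control libraries (edgeR adjusted p = 0.0416). With any 1 library left out its edgeR adjusted p was 0.0596 to 0.148. DESeq2 and limma-voom also called Pmp22 with all libraries (adjusted p of 0.00097 and 0.0448). Brown adipocyte markers summed to 23496 to 30416 CPM in labelled knockout and 28599 to 35065 CPM in control libraries, with 10 of 13 below 0 and none past the threshold. The most abundant markers of each list, given as means of labelled knockout and then control libraries, were Myh4 at 3313 and 1792 CPM and Acta1 at 2327 and 1481 CPM for muscle. For vessels they were Kdr at 301 and 318, Cdh5 at 197 and 199, Rgs5 at 271 and 267 and Abcc9 at 89.0 and 76.1 CPM. Besides these stood the fibroblast gene Dcn at 157 and 130 CPM, the glial S100b at 134 and 113 CPM, the macrophage genes Lyz2 at 67.9 and 52.7 and C1qa at 15.6 and 12.8 CPM, and the adipocyte gene Fabp4 at 10243 and 12066 CPM. With the muscle score as a covariate 0 collagen genes were called, the same as without it, so this count says nothing about muscle. The score was itself partly tied to genotype, at 8.841 to 9.793 in labelled knockout and 8.024 to 9.401 in control libraries. The part of muscle and of the other cell types in the collagen values was not tested.

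Collagen chains are modified, folded, cut and cross-linked by a shared set of proteins. Of 21 genes for chain modification and folding, 15 lay above 0 (median 0.11), and none passed the threshold. At an unadjusted p of 0.05 in edgeR, 5 of the 21 were below, against 15.2% of all genes. Serpinh1, the collagen chaperone HSP47, was at 344 ± 21.8 CPM in labelled knockout and 349 ± 20.9 CPM in control libraries. P4hb, the shared subunit of prolyl hydroxylase, was at 133 ± 9.85 and 102 ± 13.6 CPM; its log2 fold change was 0.38 ± 0.11, with an adjusted p of 0.160 in edgeR and 0.0487 in DESeq2. Its catalytic partners P4ha1 and P4ha2, named after their values were seen, had log2 fold changes of 0.27 ± 0.11 and 0.44 ± 0.15 (adjusted p of 0.263 and 0.213).

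Among 8 genes for propeptide processing and cross-linking, 4 lay above 0 and 4 below (median 0.02). Of the 8, 1 passed, against 0.385% of all genes. Lox, the lysyl oxidase that starts the covalent cross-linking of collagen and elastin, stood at 30.7, 33.0, 30.2 and 26.1 CPM in labelled knockout 1 to 4, against 21.3, 18.1, 18.3 and 16.3 CPM in control 1 to 4. All labelled knockout libraries lay above all control libraries, and Lox rose with a log2 fold change of 0.69 ± 0.11 (adjusted p = 0.0208). DESeq2 and limma-voom called Lox too (adjusted p of 3.76e-05 and 0.0275). In edgeR the call was kept without control 1, control 3 or labelled knockout 4 and lost without any 1 of the other 5 libraries. The edgeR adjusted p reached 0.0871 without labelled knockout 3. The call was also lost once the muscle score was in the edgeR fit (adjusted p = 0.14). An antisense gene overlaps the exons of Lox, so its value is uncertain. Pcolce, which speeds the cutting of the procollagen C-propeptide and was named after its values were seen, was at 49.5 CPM in labelled knockout and 34.8 CPM in control libraries (log2 fold change 0.51 ± 0.13, adjusted p = 0.125). The 4 genes below 0 were Pcolce2, Loxl1, Loxl2 and Loxl3, with log2 fold changes of -0.62, -0.09, -0.05 and -0.25, none of them called.

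Partners of collagen in the matrix showed no call. Of 14 fibril-associated proteins 7 lay above 0 and 7 below (median 0.01), and the 18 basement membrane partners had 6 above and 12 below (median -0.10). At an unadjusted p of 0.05 in edgeR, 6 of the 14 and 3 of the 18 were below, against 15.2% of all genes. Hspg2, the heparan sulfate proteoglycan perlecan, was at 320 ± 27.3 CPM in labelled knockout and 340 ± 39.4 CPM in control libraries, and Sparc, a collagen-binding secreted protein on both lists, at 652 ± 33.9 and 697 ± 35.5 CPM. Prelp, which anchors fibrils to basement membranes, was at 137 ± 29.2 CPM in labelled knockout and 232 ± 29.2 CPM in control libraries; its log2 fold change was -0.76 ± 0.15 (adjusted p = 0.0741). DESeq2 called it (adjusted p = 0.00103), and edgeR called it only without labelled knockout 2 (adjusted p = 0.029). An antisense gene overlaps Prelp.

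Receptors and enzymes that remove collagen did not pass either. Of 15 collagen receptors 7 lay above 0, and the integrin genes Itgb1 and Itga1, whose products pair as a receptor for collagen IV, had log2 fold changes of -0.04 ± 0.08 and -0.20 ± 0.09. Of 20 genes for collagen breakdown 10 lay above 0, led in level by the cathepsins Ctsb, at 1026 ± 139 CPM in labelled knockout and 1084 ± 115 CPM in control libraries, and Ctsl, at 187 ± 16.8 and 151 ± 25.3 CPM. Mmp11 of this list, named after its values were seen, was at 7.04 CPM in labelled knockout and 2.97 CPM in control libraries. Its log2 fold change was 1.24 ± 0.27 (edgeR adjusted p = 0.0944). Of the 20, 4 were under an unadjusted p of 0.05 in edgeR, against 15.2% of all genes. Of 28 genes of transforming growth factor beta and other profibrotic signals 15 lay above 0 (median 0.07), and none passed. At an unadjusted p of 0.05 in edgeR, 8 of the 28 were below, against 15.2% of all genes. The most abundant were the latent TGF-beta binding proteins Ltbp3, at 231 ± 50.2 CPM in labelled knockout and 216 ± 22.4 CPM in control libraries, and Ltbp4, at 115 ± 7.09 and 117 ± 17.7 CPM.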

How the data were processed

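RNA was measured in interscapular brown fat of 8 mice, 4 per genotype, grouped by the genotype and mouse number in the sample titles. The libraries were TruSeq stranded mRNA, per the labels' protocols. The submitters' processing notes name HISAT2, featureCounts, Subread, SAMtools, Trimmomatic and FastQC with build GRCm38. Whole-number read counts per gene were deposited by the authors; settings, strand option and annotation: not given in the sources used here.

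CPM were computed from these counts with TMM-scaled library sizes (edgeR 4.0.16, R 4.3.3). Genes kept by filterByExpr (13756) were tested with edgeR's quasi-likelihood test on genotype, with Benjamini-Hochberg adjustment over all genes and a threshold of 0.05. The SE came from the size of the log2 fold change and its F statistic, and 95% intervals use the t distribution with the test's degrees of freedom. The SD describes the spread between mice, and the p-values test the genotype difference against variation between mice. A count of 0 allowed up to 3 counts, or 0.150 to 0.250 CPM in a library, which covers counting error only. Gene positions, exon lengths and overlaps were taken from GENCODE M21 on GRCm38, which held 99.8% of the gene IDs, and windows before gene starts from RefSeq (GRCm38.p6).

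Alternatives were DESeq2 1.42.0, limma-voom (limma 3.58.1), other scalings, filters and dispersion, the mouse number as a block, a score of 20 skeletal muscle markers as a covariate, and each library left out. Transcript length in place of exon length was added after seeing the data. The members and lists were chosen with earlier results of these data known. Every collagen over the minimum is named; values per library are given for the 4 most abundant of each class and for collagens that passed or did not overlap, and for Pparg. Of each pathway list, the genes that passed or the 2 most abundant are named, and of each marker list the 2 most abundant. Col5a2 per library, Myl1, P4ha1, P4ha2, Pcolce, Pcolce2, Loxl1, Loxl2, Loxl3 and Mmp11 were added after their values were seen.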

Additional observations from a re-analysis of the deposited data

Results flagged for a closer look

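Among 66 checks of 4 libraries each (28 genes and 5 sums in each genotype), 4 had a library whose gap to the nearest other exceeded Dixon's 95% critical ratio, where chance marks about 1 in 20. Col1a1 stood at 23.5 CPM in labelled knockout 2, against 16.7 to 17.4 CPM in the rest of that group. Col4a2 stood at 533 CPM in control 2, against 467 to 476 CPM in the other control libraries. Col6a2 was also high in that library, at 25.8 CPM against 18.3 to 18.4 CPM. Col23a1 was low in control 4, at 0.501 CPM against 1.04 to 1.12 CPM, a value that rests on 6 counts.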

How the results depend on the processing

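No collagen gene was called under any of the 18 alternatives, and the median log2 fold change of the collagens stayed between 0.00 and 0.11, within the spread between mice. Of 503 fits of single members, 473 kept their direction and 30, in 13 genes, turned it. Outside the fits that left out a library, these were Col16a1 with limma-voom (-0.05), with the mouse number as a block (-0.01) and with the muscle score (-0.22), Col11a2 with the muscle score (0.06) and total count scaling (0.01), Col4a5 with the muscle score (-0.01), and Col13a1 with total count (0.03) and upper-quartile scaling (0.01). With each library left out in turn the log2 fold changes ranged from -0.03 to 0.18 for Col3a1, -0.22 to 0.08 for Col1a2, -0.25 to 0.01 for Col1a1, -0.27 to 0.10 for Col11a2, -0.10 to 0.00 for Col4a1, -0.18 to 0.03 for Col18a1, -0.28 to 0.08 for Col4a3, -0.23 to 0.01 for Col12a1, -0.24 to 0.14 for Col13a1, -0.24 to 0.13 for Col16a1, -0.28 to 0.01 for Col20a1 and -0.59 to 0.16 for Col28a1. The summed collagen ratio stayed between 0.971 and 1.02. The count over all genes moved from 53 to 384 with DESeq2, 187 with no filter on low counts, 155 with the replicate block and 28 with the muscle score, and between 24 and 75 with a library left out; the cause was not tested. The mouse numbers share only a number: deviations of same-numbered mice correlated at 0.0235 to 0.404, and 1 of 4 matched its own number best. The 5 genes with intervals over 2-fold each had at most 264 counts, and others as low, such as Col4a3 with 142, had narrower ones; depth and spread between mice were not told apart. Without a change of direction, the muscle score moved Col10a1 from 0.98 to 2.06 and Col28a1 from -0.23 to -1.12.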
